A study of Mus musculus with 8 samples.

Results

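The genes described here encode the proteasome: every protein-coding gene whose mouse symbol begins with Psma to Psmg and a number, plus Pomp. The rule used names only and no measured value. It found 50 of the 19896 gene IDs that both deposited tables hold, out of 51 genes of the annotation that meet it; the remaining gene, Psmb11, was not analysed here. The 50 genes fell into 7 alpha ring subunits, 4 non-catalytic and 3 catalytic beta ring subunits, 3 immune subunits and the testis subunit Psma8 of the 20S core, 6 ATPases and 3 scaffolds or ubiquitin receptors of the base, 8 lid subunits, 8 assembly factors, and 6 activators or inhibitors. The last gene, Psmc3ip, matches by name only: it encodes a cofactor of meiotic recombination and is no part of the proteasome. The study sequenced their poly(A) RNA in E14 cells, a line of mouse embryonic stem cells, with 2 libraries in each of 4 groups. Cct7 KD and Cct5 KD cells carried a pLKO Tet-on vector with a short hairpin against Cct7 or Cct5, genes for subunits of the cytosolic chaperonin CCT, and the 2 control groups, Cct7 KD Ctr and Cct5 KD Ctr, carried the empty vector. All 4 groups, controls included, went through 14 days of selection with 0.5 µg/ml puromycin and then 2 days of 2 µg/ml doxycycline, and were kept mainly in serum with Lif. The series text says that positive clones were picked; the labels state neither how many clones a group holds nor whether its libraries are separate cultures, so p-values measure only the spread between these libraries.

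The 26S proteasome degrades proteins tagged with ubiquitin. Its 20S core is a stack of alpha and beta rings with the cutting sites inside, and the 19S particle on its end binds ubiquitin, removes it and unfolds the substrate. The immune subunits Psmb8, Psmb9 and Psmb10 take the places of Psmb5, Psmb6 and Psmb7 and change the peptides that are cut. They are known mostly from immune cells and from cells exposed to interferon.

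Depth could be read from the step between low FPKM values (fragments per kilobase of gene, scaled to sequencing depth) in 6 libraries and lay between 18.9 and 54.8 M fragments, in units of 1e6. No depth was accepted for Cct5 KD, whose values contain those of Cct7 KD. In both pairs of libraries nearly all Cct5 KD values equalled the same-numbered Cct7 KD value multiplied by 1.125, plus a remainder. In each pair, 15 of the 19896 shared genes lay below this multiple. The targeted gene Cct5, at 280 and 271 FPKM in Cct7 KD, was among them. The multiple made up 71.3% of each Cct5 KD total. The Cct5 KD libraries are therefore no second, independent knockdown, and the remainder is given beside them. The targeted genes went with the labels: Cct7 had 14.4 and 17.8 FPKM in Cct7 KD, against 269 and 280 FPKM in Cct7 KD Ctr, and Cct5 had 70.8 and 73.4 FPKM in Cct5 KD, against 368 and 367 FPKM in Cct5 KD Ctr. Knockdowns and controls differed in other ways. Hprt, a purine salvage enzyme, had 1.12 and 0.781 FPKM in Cct7 KD and 161 and 161 FPKM in its control. All 10 pluripotency markers were present in every group, with a sum of 1045 to 1054 FPKM in Cct7 KD and 4559 to 4766 FPKM in its control. The summed markers of fibroblast feeders came to 17.03 to 18.2 FPKM in Cct7 KD and 19.4 to 19.9 FPKM in its control, with Dcn, Lum and Twist2 not in the tables. Those of blood cells came to 24.2 to 25.6 FPKM in Cct7 KD and 14.2 to 15.5 FPKM in its control, nearly all of it Coro1a and Laptm5, while Ptprc, which defines these cells, was at 0.102 and 0.135 FPKM in Cct7 KD and 0.0380 and 0.0274 FPKM in its control. Single markers moved more than these sums: the fibroblast marker Pdgfrb had 5.38 and 5.81 FPKM in Cct7 KD, against 1.39 and 1.51 FPKM in its control. Of 8 markers of primitive endoderm, 5 reached a mean of 1 FPKM in Cct7 KD and 2 in its control, among them Gata6, with 1.77 and 2.42 FPKM in Cct7 KD, against 0.678 and 0.756 FPKM in its control. The sum of the 8 was 12.99 to 14.2 FPKM in Cct7 KD and 16.8 to 17.1 FPKM in its control. The part of these differences in the results below was not tested.

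Most constitutive subunits were abundant and close to each other in level. The median over the 14 constitutive core subunits was 154 and 153 FPKM in Cct7 KD and 136 and 142 FPKM in Cct7 KD Ctr, and the median over the 17 subunits of the 19S particle was 106 and 105 FPKM in Cct7 KD and 101 and 104 FPKM in Cct7 KD Ctr. FPKM is a level per length of gene, so genes can be ranked on it, as far as the gene lengths used are right. Psmb5, the chymotrypsin-like subunit, was the lowest core gene in every library, with 21.4 and 26.0 FPKM in Cct7 KD and 30.1 and 32.1 FPKM in its control. The highest core gene was the alpha subunit Psma6 in Cct7 KD, at 256 and 245 FPKM, and the caspase-like subunit Psmb6 in Cct7 KD Ctr, at 308 and 316 FPKM. In the 19S particle the lowest gene was the lid subunit Psmd11 in Cct7 KD, at 51.5 and 54.7 FPKM, and the lid subunit Psmd13 in Cct7 KD Ctr, at 68.0 and 65.8 FPKM. The highest was the base scaffold Psmd2 in Cct7 KD, at 213 and 217 FPKM, and the lid subunit Psmd7 in Cct7 KD Ctr, at 209 and 215 FPKM. The rank order within both particles thus differed between knockdown and control, while the median of each lay near that of its control. Far below stood the immune subunits, the assembly factors Psmg3 and Psmg4 and the testis subunit.

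**Figure D1:**
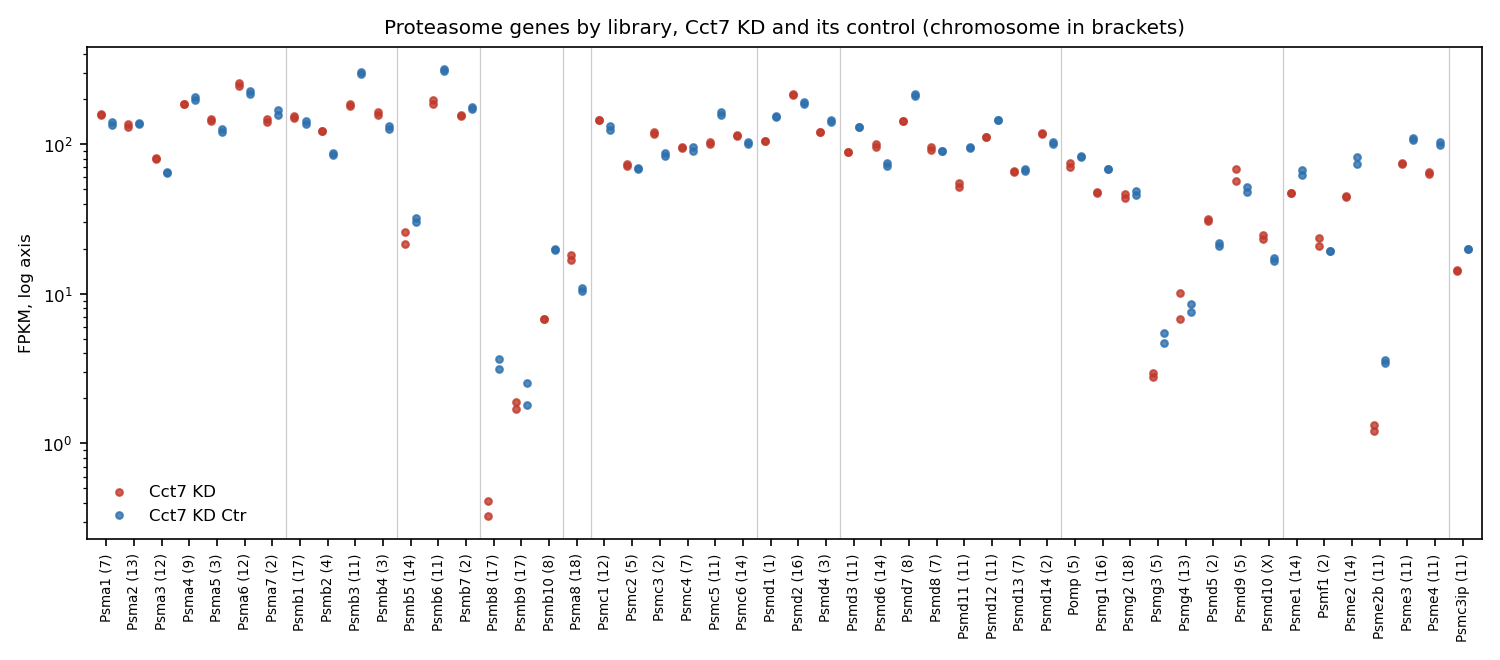
FPKM of each of the 50 genes on a log axis in the 2 Cct7 KD libraries (red) and the 2 Cct7 KD Ctr libraries (blue); vertical lines part the role classes and the chromosome stands in brackets. Psmb8 has the widest gap, with both Cct7 KD points under 1 FPKM and both control points above 3 FPKM.

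In Cct7 KD the proteasome genes split. With FPKM as deposited, 18 of the 50 genes were called higher, 24 lower and 8 in neither direction (limma on log2(FPKM + 1), Benjamini-Hochberg adjusted p under 0.05), and their median log2 change was −0.09. Of all 13588 genes tested, 49.3% were called higher and 32.0% lower, with a median of 0.15. After median-of-ratios scaling, which moves the median of all genes to 0.03, 8 of the 50 were called higher and 29 lower, with a median of −0.23, against 42.2% and 38.5% of all genes. The lower share thus lay above the background under both scalings, while most changes were small: 2 genes, Psmb8 and Psmb10, passed a fold of 2 as well, beside 20.1% of all genes. Together the 50 genes made up 0.962% and 0.959% of the FPKM total in Cct7 KD, against 1.00% and 1.02% in its control. In RNA from whole cultures, fewer cells with a transcript and less of it in each cell cannot be told apart.

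**Figure D2:**
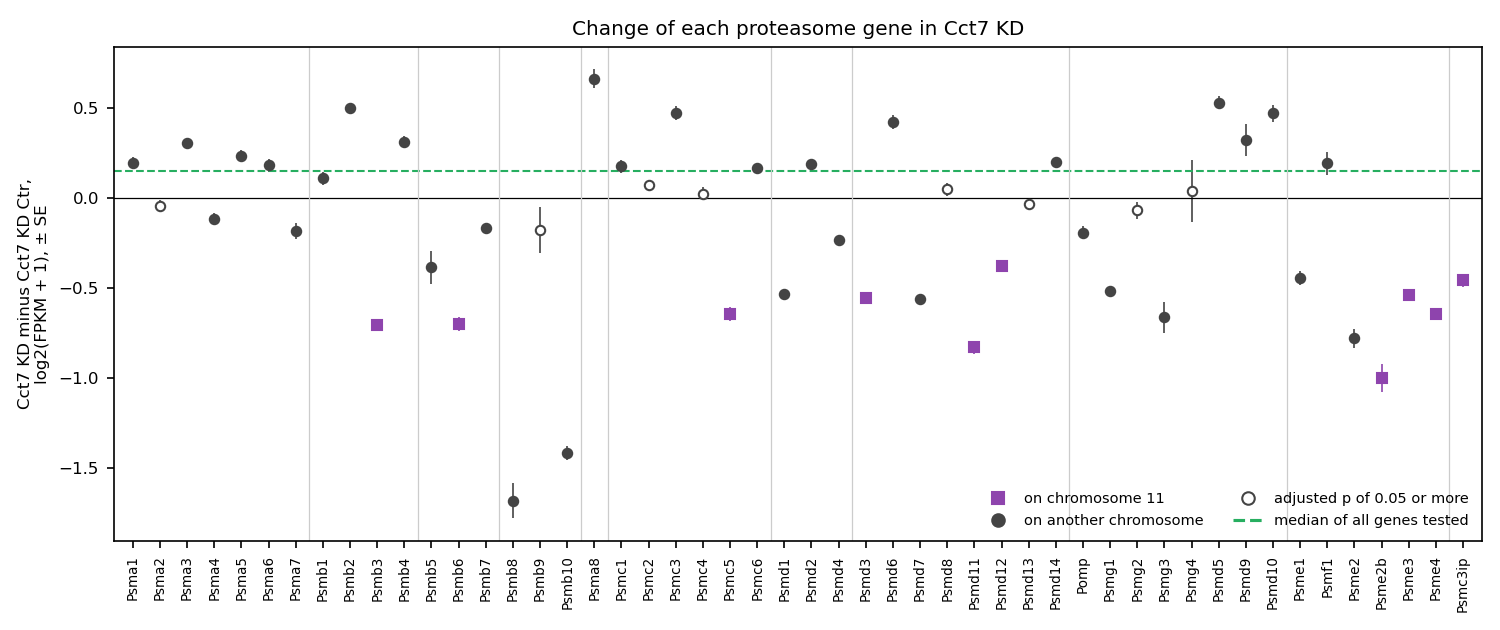
Log2(FPKM + 1) of Cct7 KD minus Cct7 KD Ctr for each gene, without scaling, with the standard error from limma; open points have an adjusted p of 0.05 or more, squares lie on chromosome 11, and the dashed line is the median of all genes tested, 0.15. Psmb8 and Psmb10 lie lowest, and all 10 squares lie below 0, also after median-of-ratios scaling.

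The immune subunits gave the largest falls. Psmb8, which replaces Psmb5, had 0.414 and 0.325 FPKM in Cct7 KD, against 3.65 and 3.14 FPKM in Cct7 KD Ctr. The mean in Cct7 KD was 10.9% of control, and the log2 change, which the pseudocount of 1 makes smaller for so low a gene, was −1.68 ± 0.10 (SE; adjusted p = 3.6e-05). Psmb10, which replaces Psmb7, had 6.79 and 6.75 FPKM in Cct7 KD, against 19.8 and 19.6 FPKM in Cct7 KD Ctr, a log2 change of −1.42 ± 0.04 (adjusted p = 3.9e-06). Since 1 fragment on 1 kb equals 0.0481 and 0.0530 FPKM in the Cct7 KD libraries, the Psmb8 values rest on few fragments and carry counting error. Genes averaging under 1 FPKM were left out of the test, and Psmb8 passed this filter through its controls alone. Both genes fell to levels that did not overlap the controls. Psmb9, which replaces Psmb6 and lies beside Psmb8, behaved otherwise: it had 1.71 and 1.88 FPKM in Cct7 KD, against 1.82 and 2.54 FPKM in Cct7 KD Ctr. These ranges overlapped, and the log2 change of −0.18 ± 0.13 did not pass the test (adjusted p = 0.24), though it did without control replicate 1 (−0.34, adjusted p = 0.036). Psmb9 overlaps Tap1, a peptide transporter subunit, on the opposite strand, and Tap1 had 4.19 and 4.88 FPKM in Cct7 KD, against 3.18 and 3.43 FPKM in Cct7 KD Ctr. Whether the authors' counting used the strand is not given, so reads of this pair may be shared.

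Ratios within a library do not depend on scaling. Psmb8 stood at 1.93% and 1.25% of Psmb5 in Cct7 KD, against 12.1% and 9.76% in Cct7 KD Ctr. Psmb10 stood at 4.38% and 4.31% of Psmb7 in Cct7 KD, against 11.5% and 11.1% in Cct7 KD Ctr. Psmb9 stood at 0.862% and 1.011% of Psmb6 in Cct7 KD, against 0.591% and 0.802% in Cct7 KD Ctr, so this ratio was higher in both Cct7 KD libraries. The ratio also moved through Psmb6, which fell. The testis subunit Psma8, a meiotic stand-in for Psma7, went up: it had 18.1 and 16.7 FPKM in Cct7 KD, against 10.4 and 10.8 FPKM in Cct7 KD Ctr. Its log2 change of 0.66 ± 0.05 (adjusted p = 0.00011) was the largest rise of the 50 genes, and it stood at 12.8% and 11.4% of Psma7 in Cct7 KD, against 6.60% and 6.40% in Cct7 KD Ctr.

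**Figure D3:**
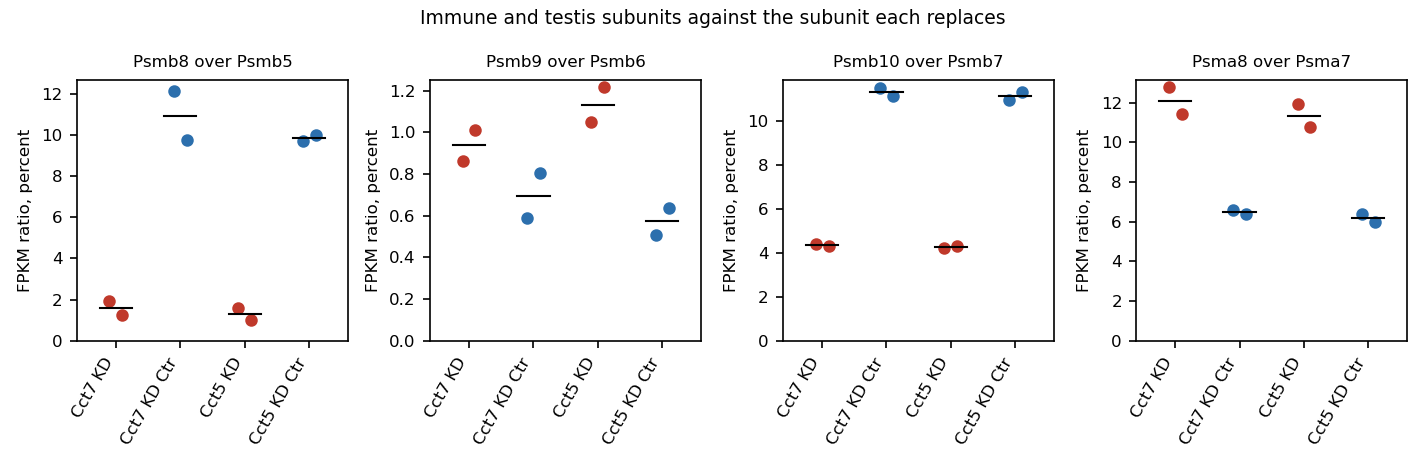
FPKM of each immune or testis subunit as a percentage of the constitutive subunit whose place it takes, per library, with bars at the group means; knockdowns are red and controls blue. Psmb8 and Psmb10 are low in both knockdowns, Psmb9 and Psma8 are high, and Cct5 KD is no independent repeat of Cct7 KD.

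The immune subunits are shown with the promoter of Psmb5, which kept a much higher level, and of Psmd11, the lid gene with the largest fall. The windows come from RefSeq on GRCm38.p6, run from 250 bases before to 50 bases after the annotated start and are written 5′ to 3′ on the strand of the gene. Capitals mark matches to the motifs described further on, read on either strand. Psmb8 lies at chr17:34197945-34198244 on the plus strand, and its capitals mark a STAT-type match, TTCNNNGAA. Psmb9 lies at chr17:34187281-34187580 on the minus strand, with a CCAAT box in reverse. Psmb10 lies at chr8:105938343-105938642 on the minus strand and holds none of the 6 motifs. Psmb5 lies at chr14:54617946-54618245 on the minus strand, with a match to the antioxidant response type, TGACNNNGC. Psmd11 lies at chr11:80428365-80428664 on the plus strand, with an ETS-type match, CCGGAAG, in reverse.
Psmb8: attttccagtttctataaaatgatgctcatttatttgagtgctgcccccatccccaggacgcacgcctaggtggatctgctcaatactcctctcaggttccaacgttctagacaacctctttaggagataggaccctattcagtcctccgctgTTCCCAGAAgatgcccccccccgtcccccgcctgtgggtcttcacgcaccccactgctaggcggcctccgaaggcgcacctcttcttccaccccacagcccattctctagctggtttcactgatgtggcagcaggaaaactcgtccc
Psmb9: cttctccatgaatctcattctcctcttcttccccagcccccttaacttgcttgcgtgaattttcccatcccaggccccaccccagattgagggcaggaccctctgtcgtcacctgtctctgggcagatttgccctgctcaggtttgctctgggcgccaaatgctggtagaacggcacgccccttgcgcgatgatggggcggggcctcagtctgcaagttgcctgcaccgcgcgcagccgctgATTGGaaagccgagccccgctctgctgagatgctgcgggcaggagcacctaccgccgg
Psmb10: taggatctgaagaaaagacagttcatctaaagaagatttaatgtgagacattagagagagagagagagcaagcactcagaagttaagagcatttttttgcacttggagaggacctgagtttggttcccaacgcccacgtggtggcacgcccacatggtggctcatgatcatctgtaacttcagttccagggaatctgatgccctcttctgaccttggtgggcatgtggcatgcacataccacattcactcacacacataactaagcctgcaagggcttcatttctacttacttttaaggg
Psmb5: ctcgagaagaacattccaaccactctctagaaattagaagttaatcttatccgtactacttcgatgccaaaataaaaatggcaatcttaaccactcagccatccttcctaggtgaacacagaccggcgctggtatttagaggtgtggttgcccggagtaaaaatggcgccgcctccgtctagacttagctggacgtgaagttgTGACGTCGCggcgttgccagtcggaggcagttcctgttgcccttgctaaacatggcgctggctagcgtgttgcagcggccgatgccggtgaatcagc
Psmd11: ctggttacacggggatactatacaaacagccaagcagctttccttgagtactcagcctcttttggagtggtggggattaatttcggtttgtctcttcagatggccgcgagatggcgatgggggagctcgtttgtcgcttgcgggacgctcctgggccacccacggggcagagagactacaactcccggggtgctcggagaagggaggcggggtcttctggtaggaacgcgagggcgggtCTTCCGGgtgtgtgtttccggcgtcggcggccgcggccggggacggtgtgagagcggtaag

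The genes around antigen presentation did not move as a block with the immune subunits. Of 10 tested genes on a list of 12, 4 were called higher and 4 lower in Cct7 KD, beside 49.3% and 32.0% of all genes. B2m, the light chain of class I molecules, had 63.8 and 58.1 FPKM in Cct7 KD, against 18.4 and 18.8 FPKM in Cct7 KD Ctr. The class I heavy chains H2-D1 and H2-K1 had log2 changes of 1.95 and 1.24. Irf1, a transcription factor of the interferon response that lies on chromosome 11, had 13.1 and 12.2 FPKM in Cct7 KD, against 35.2 and 36.7 FPKM in Cct7 KD Ctr, a log2 change of −1.44 (adjusted p = 5.6e-06). So Irf1 fell together with Psmb8 and Psmb10, while class I genes rose. Tapbp, which loads peptides on class I molecules, fell by 0.50 on the log2 scale.

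Among the constitutive core genes the 3 catalytic subunits fell, while the calls in the alpha ring depended on the scaling. Psmb6, the caspase-like subunit, had 198 and 186 FPKM in Cct7 KD, against 308 and 316 FPKM in Cct7 KD Ctr, a log2 change of −0.70 ± 0.04 (adjusted p = 3e-05). Psmb5 changed by −0.38 ± 0.09 (adjusted p = 0.011) and Psmb7, the trypsin-like subunit, by −0.16 ± 0.03 (adjusted p = 0.002), and all 3 were called lower after scaling too. Their summed FPKM over that of the 7 alpha subunits was 0.338 and 0.339 in Cct7 KD, against 0.498 and 0.489 in Cct7 KD Ctr. Of the 7 alpha subunits, 4 were called higher and 2 lower as deposited, with a median log2 change of 0.18. After scaling 1 was called higher (Psma3) and 3 lower (Psma2, Psma4, Psma7). After subtracting the median of each chromosome 0 were called higher and 4 lower. The shares of all genes were 49.3% higher and 32.0% lower as deposited, 42.2% and 38.5% after scaling, and 40.1% and 40.4% after that subtraction. Psma3 had 81.3 and 79.4 FPKM in Cct7 KD, against 64.4 and 65.2 FPKM in Cct7 KD Ctr. Of the 4 non-catalytic beta subunits, Psmb2 rose by 0.50 ± 0.03 and Psmb4 by 0.31 ± 0.03, also after scaling. Psmb3 fell by 0.71 ± 0.03 on the log2 scale. Psmb4 lies on chromosome 3, where the other tested genes had a median of 0.28 as deposited. With chromosome medians subtracted, 1 of the 4 was called higher and 1 lower, and the largest rise was 0.32. Psmb1 was called higher at 0.11 as deposited but stood at −0.03 after scaling, where it was not called, and it was not called without control replicate 1 or Cct7 KD replicate 1 (adjusted p = 0.10 and 0.14). Psma4 and Psma7 were not called as deposited without Cct7 KD replicate 1 (adjusted p = 0.074 and 0.054), nor Psma4 without replicate 2 (adjusted p = 0.069).

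In the 19S particle the base and the lid each went both ways. Of the 6 ATPases, which form the unfolding ring, Psmc1, Psmc3 and Psmc6 were called higher, Psmc5 lower and Psmc2 and Psmc4 in neither direction. The shares of all genes were 49.3% higher and 32.0% lower as deposited, and 42.2% and 38.5% after scaling. Psmc3 had 121 and 116 FPKM in Cct7 KD, against 83.1 and 87.3 FPKM in Cct7 KD Ctr (log2 change 0.47 ± 0.04, adjusted p = 0.00011), and was the only ATPase called higher after scaling. Psmc5 had 104 and 100 FPKM in Cct7 KD, against 156 and 164 FPKM in Cct7 KD Ctr (−0.64 ± 0.04, adjusted p = 3.1e-05). The scaffold Psmd1 fell by 0.53 ± 0.02 on the log2 scale and the ubiquitin receptor Psmd4 by 0.23 ± 0.03. Psmd2, a scaffold that also binds ubiquitin-like shuttles, was at 0.19 ± 0.03 as deposited and at 0.05, not called, after scaling.

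Of the 8 lid genes, 2 were called higher and 4 lower as deposited, against 1 higher and 6 lower after scaling. The shares of all genes were 49.3% higher and 32.0% lower as deposited, and 42.2% and 38.5% after scaling. Psmd11 had 51.5 and 54.7 FPKM in Cct7 KD, against 96.0 and 94.0 FPKM in Cct7 KD Ctr, and its log2 change of −0.83 ± 0.04 (adjusted p = 1.4e-05) was the largest of the 19S particle. Psmd7 changed by −0.56, Psmd3 by −0.55 and Psmd12 by −0.38. Psmd6 rose by 0.42 ± 0.04, also after scaling (0.28). Psmd14, the deubiquitinase of the lid, had 119 and 116 FPKM in Cct7 KD, against 101 and 104 FPKM in Cct7 KD Ctr, a rise of 0.20 ± 0.03 that was not called after scaling (0.06). The median of the 17 genes of the 19S particle over the median of the 14 core genes was 0.684 and 0.687 in Cct7 KD, against 0.741 and 0.732 in Cct7 KD Ctr.

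Of the 8 assembly factors, 3 were called higher and 3 lower as deposited, 2 and 4 after scaling, and 1 and 4 after subtracting the median of each chromosome. The shares of all genes were 49.3% higher and 32.0% lower as deposited, 42.2% and 38.5% after scaling, and 40.1% and 40.4% after that subtraction. The base chaperones Psmd5, Psmd9 and Psmd10 were all called higher as deposited: Psmd5 had 31.6 and 30.9 FPKM in Cct7 KD, against 20.9 and 21.7 FPKM in Cct7 KD Ctr (0.53 ± 0.04, adjusted p = 5.5e-05), and Psmd10 had 24.6 and 23.3 FPKM in Cct7 KD, against 16.5 and 17.5 FPKM in Cct7 KD Ctr (0.47 ± 0.05, adjusted p = 0.00024). Both were also called higher after scaling. Psmd10 lies on X, where the other tested genes had a median of 0.39 as deposited, and Psmd5 on chromosome 2, with 0.24. With chromosome medians subtracted, the largest change among the 8 assembly factors was 0.27. Psmd9, at 0.33 ± 0.09, was not called after scaling (0.18, adjusted p = 0.094) or without control replicate 1 (adjusted p = 0.065). None of the core chaperones was called higher. Psmg1, which with Psmg2 starts the alpha ring, had 47.8 and 47.3 FPKM in Cct7 KD, against 68.5 and 68.2 FPKM in Cct7 KD Ctr (−0.52 ± 0.03, adjusted p = 2e-05). Its partner Psmg2 had 46.3 and 43.8 FPKM in Cct7 KD, against 45.7 and 48.8 FPKM in Cct7 KD Ctr, with overlapping ranges (−0.07, adjusted p = 0.22), and was called lower after scaling (−0.21). Psmg3 had 2.94 and 2.76 FPKM in Cct7 KD, against 4.71 and 5.49 FPKM in Cct7 KD Ctr (−0.66 ± 0.09), whereas its partner Psmg4 had 6.76 and 10.1 FPKM in Cct7 KD, against 7.57 and 8.501 FPKM in Cct7 KD Ctr (0.04 ± 0.17, adjusted p = 0.83). The 2 Cct7 KD libraries disagreed on Psmg4, which was called higher without replicate 1 (0.30, adjusted p = 0.027). Pomp, the maturation factor of the core, fell by 0.19 ± 0.04 on the log2 scale (adjusted p = 0.0038).

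The activators all fell, as deposited and after scaling. Psme1, a subunit of the interferon-induced activator PA28 alpha-beta, had 47.0 and 47.5 FPKM in Cct7 KD, against 62.4 and 67.0 FPKM in Cct7 KD Ctr (−0.44 ± 0.04). Psme2, its partner, had 44.5 and 44.8 FPKM in Cct7 KD, against 73.2 and 81.5 FPKM in Cct7 KD Ctr (−0.78 ± 0.05). Neither gene overlapped its controls. Psme3, the nuclear PA28 gamma, had 74.8 and 73.8 FPKM in Cct7 KD, against 106 and 110 FPKM in Cct7 KD Ctr (−0.54 ± 0.03). Psme4, the activator PA200, had 65.1 and 63.4 FPKM in Cct7 KD, against 103 and 99.0 FPKM in Cct7 KD Ctr (−0.64 ± 0.03). Psme2b, a near-identical copy of Psme2, had 1.21 and 1.33 FPKM in Cct7 KD, against 3.63 and 3.43 FPKM in Cct7 KD Ctr, and is uncertain because reads of Psme2 may count for it. Psmf1, which encodes the inhibitor PI31, was called higher as deposited (0.19 ± 0.06, adjusted p = 0.033), but not after scaling (0.06) or without either control library or Cct7 KD replicate 2 (adjusted p = 0.079 to 0.096). Psmc3ip, the gene that is no subunit, fell by 0.46 ± 0.03 on the log2 scale and overlaps Mlx on the opposite strand.

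Chromosome went with direction. All 10 genes on chromosome 11 (Psmb3, Psmb6, Psmc5, Psmd3, Psmd11, Psmd12, Psme2b, Psme3, Psme4 and Psmc3ip) were called lower in Cct7 KD, as deposited and after scaling, with a median log2 change of −0.64 and a range of −0.999 to −0.38. The 1107 other tested genes of this chromosome had a median of −0.26, and 54.1% of them were called lower, beside 32.0% of all genes. Chromosome 1 was also shifted, with a median of −0.18, and holds Psmd1, which fell; the other autosomes and X had medians from 0.04 to 0.39. The 40 genes outside chromosome 11 had a median of 0.05, and 22 of them were above 0. All 10 were below the median of the chromosome, and their differences from it had a median of −0.38. Over all chromosomes 39 of the 50 genes were below the median of their own chromosome, and after subtracting it in each library, a step chosen after seeing the data, 5 genes were called higher and 33 lower, beside 40.1% and 40.4% of all genes. Psmb8 (−1.77) and Psmb10 (−1.45) remained lowest in that fit, Psma8 (0.40) rose and Psmb6 (−0.44) fell. The chromosome 11 genes made up 19.5% and 19.4% of the summed proteasome FPKM in Cct7 KD, against 27.7% and 27.3% in Cct7 KD Ctr. Gene copy number was not measured, and its part in this pattern was not tested.

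**Figure D4:**
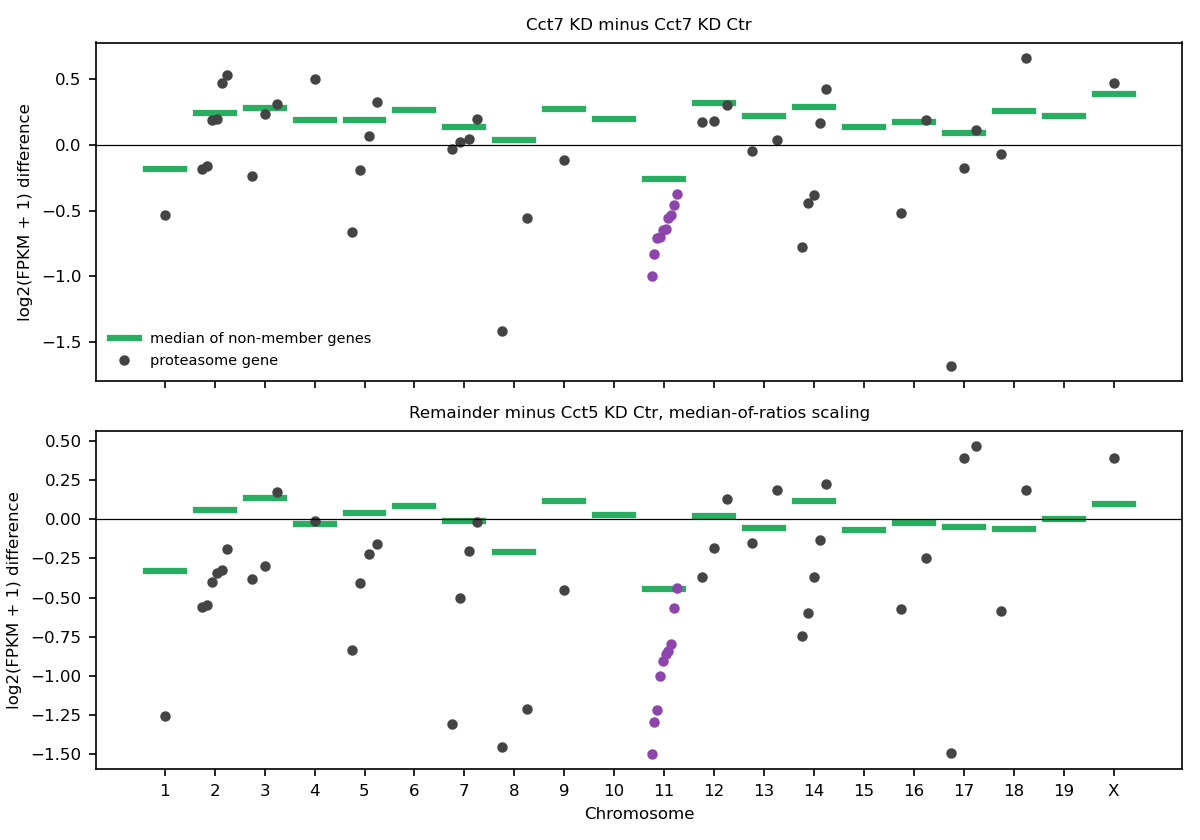
Log2(FPKM + 1) difference by chromosome for the 50 genes (points, chromosome 11 in purple) with the median of all other tested genes of that chromosome (green bars), for Cct7 KD minus Cct7 KD Ctr as deposited (top) and for the scaled remainder of Cct5 KD minus Cct5 KD Ctr (bottom). The green bar of chromosome 11 is the lowest of both panels, at −0.26 and −0.44, and its proteasome genes lie below it, except Psmc3ip, which lies level with it in the lower panel.

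In Cct5 KD the direction of most genes hung on the scaling. The FPKM total was 745912 and 744177 in Cct5 KD, against 495553 and 496684 in Cct5 KD Ctr, and as deposited 33 of the 50 genes were called higher and 13 lower, beside 78.0% and 11.3% of all 14179 genes tested. After scaling, with a median of all genes of 0.06 in place of 0.68, 7 were called higher and 33 lower, beside 44.0% and 37.6% of all genes. The proteasome genes thus lay under the run of genes either way, with a median of 0.38 as deposited and −0.32 after scaling. With a fold of 2 as well, 3 genes were called, beside 33.3% of all genes. After subtracting the median of each chromosome, 5 were called higher and 35 lower, beside 39.6% and 40.2% of all genes. Ratios within a library were similar to those of Cct7 KD, as 1.125 times that library is part of each: Psmb8 was at 1.58% and 1.013% of Psmb5 in Cct5 KD, against 9.70% and 10.01% in Cct5 KD Ctr, and Psmb10 was at 4.21% and 4.29% of Psmb7 in Cct5 KD, against 10.9% and 11.3% in Cct5 KD Ctr. Psmb8 had 0.531 and 0.401 FPKM in Cct5 KD, against 3.13 and 3.36 FPKM in Cct5 KD Ctr, and Psmb10 had 9.98 and 10.3 FPKM in Cct5 KD, against 19.6 and 21.3 FPKM in Cct5 KD Ctr. Both were called lower as deposited (−1.53 and −0.94) and after scaling (−1.91 and −1.60), though Psmb8 again passed the filter on low values through its controls alone. Psma8 (1.17 as deposited, 0.50 after scaling) and Psmd10 (1.07 and 0.39) were called higher both ways. Psmd10 lies on X, where the other tested genes had medians of 0.90 as deposited and 0.27 after scaling. The ratio of the 19S to the core median was 0.611 and 0.610 in Cct5 KD, against 0.777 and 0.741 in Cct5 KD Ctr.

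The remainder, which is what the Cct5 KD values hold beyond the multiple of Cct7 KD, was compared in their place. Its values stepped in whole fragments at a depth of 55.9 and 52.7 M fragments for 98.9% and 99.0% of low values (within 0.05 of a fragment). Scaled against Cct5 KD Ctr, 7 of the 50 genes were called higher and 39 lower in the remainder, with a median of −0.41, beside 39.9% and 45.1% of all 11701 genes tested and a median of −0.05. With chromosome medians subtracted it was 6 higher and 38 lower, beside 41.8% and 42.4% of all genes. All 8 lid genes and 5 of the 6 ATPases were called lower. Psmc4, an ATPase that was not called in Cct7 KD as deposited, was at 16.7 and 16.01 FPKM in the remainder, against 104 and 106 FPKM in Cct5 KD Ctr, a scaled log2 difference of −1.31 ± 0.03 (adjusted p = 4.9e-07). Psmc5 (−1.29), Psmd1 (−1.26), Psmd12 (−1.22) and Psmd7 (−1.21) lay as low, and Psme3 lowest on this scale at −1.50 ± 0.02. The pseudocount of 1 makes the difference smaller for low genes, and as an FPKM ratio Psmb8 was lower than Psme3. Before scaling Psmb8 had a mean of 0.0503 FPKM in the remainder, against 3.24 FPKM in Cct5 KD Ctr, and Psme3 15.6 against 115 FPKM. The lid median over the alpha ring median was 0.510 and 0.513 in the remainder, against 0.699 and 0.698 in Cct5 KD Ctr.

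The core was less low. Of the 7 alpha genes 5 were called lower and 1 higher in the remainder, with a median of −0.18, beside 45.1% and 39.9% of all genes. Psmb1 was called higher after scaling (0.39 ± 0.03), although before scaling it had 75.1 and 72.3 FPKM in the remainder, against 140 and 144 FPKM in Cct5 KD Ctr. Psmb8 (−1.49 ± 0.07) and Psmb10 (−1.46 ± 0.07) were called lower again, and Psmb9 (0.47 ± 0.08) was called higher. Psmb8 had 0.0657 and 0.0349 FPKM in the remainder and passed the filter on low values through its controls alone, so it was not tested when either control was left out. Of the 29 genes called lower in scaled Cct7 KD all 29 were called lower in the remainder, and of the 8 called higher 4 were called higher and 3 lower there. These 3 were Psmc3, Psmd5 and Psmd6, at 0.33, 0.39 and 0.28 in scaled Cct7 KD and at −0.55, −0.40 and −0.74 in the remainder. This overlap of calls was not counted over all genes, so it is not shown to be particular to the proteasome genes. All 10 chromosome 11 genes were called lower in the remainder (median −0.89), where the other 975 genes of the chromosome had a median of −0.44. Whether the remainder stands for cells of its own is not known from the labels, and since the Cct7 KD values were subtracted to form it, it shares their error.

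**Figure D5:**
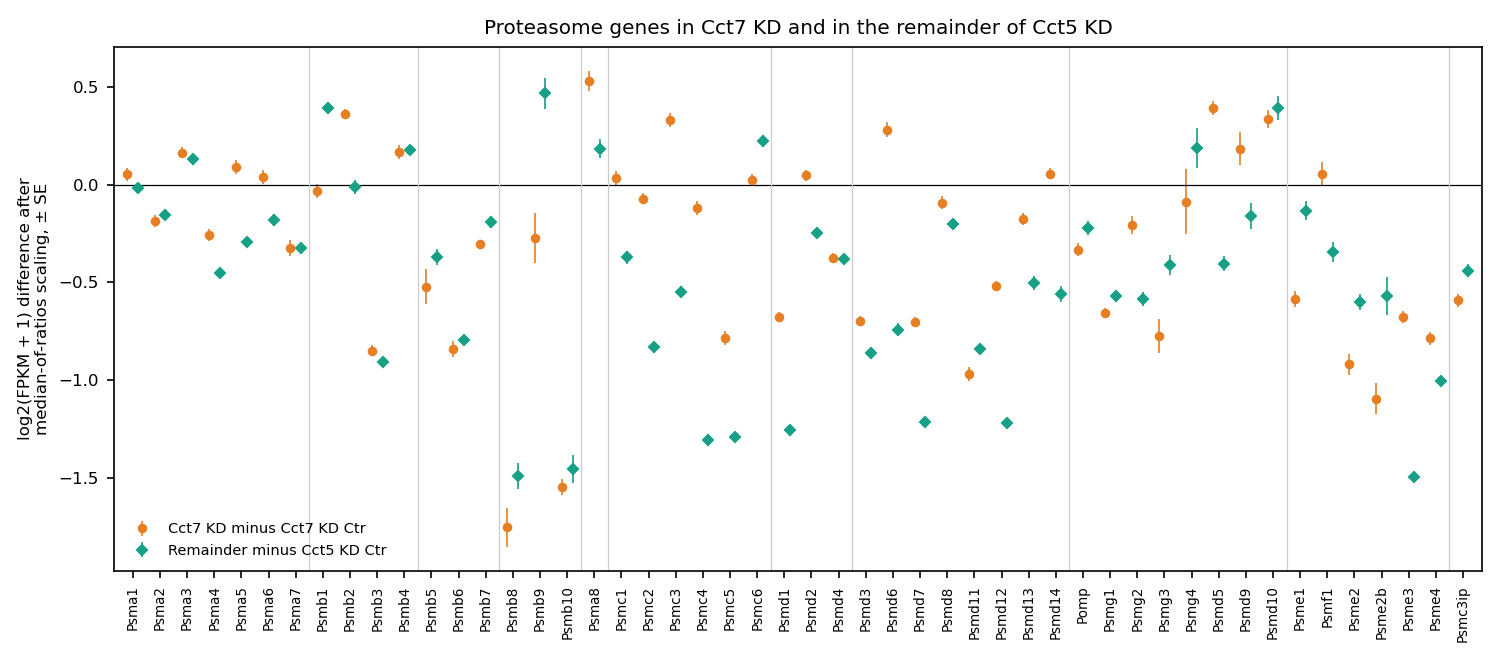
Log2(FPKM + 1) differences after median-of-ratios scaling, with standard errors from limma, for Cct7 KD minus Cct7 KD Ctr (circles) and the remainder of Cct5 KD minus Cct5 KD Ctr (diamonds); vertical lines part the role classes. The 8 lid genes (Psmd3 to Psmd14) are all below 0 in the remainder, and Psmb8 and Psmb10 are near −1.5 or below in both.

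The 2 control groups had the same vector and treatment. In Cct5 KD Ctr against Cct7 KD Ctr none of the 50 genes was called by limma in either direction, beside 0.0% of 12762 genes tested, and the smallest adjusted p of the 50 was 0.14. At an unadjusted p under 0.05 there were 13 of the 50 and 2296 of all genes, and the fit of all 8 libraries, which counts Cct5 KD and Cct7 KD as independent although they share values, called 1, Psmc4 (0.17). The differences ran from −0.15 to 0.17, with a median of 0.06 and 41 of 50 above 0. For 25 genes both Cct5 KD Ctr libraries lay above both Cct7 KD Ctr libraries, and for 0 genes below. The same count was not made over all genes, whose median difference was −0.01, so it is not shown to be particular to the 50.

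Genes that work with the proteasome were counted from lists drawn up by name. Of 11 partners outside the naming rule, 7 were called higher in Cct7 KD and 2 lower, with a median of 0.55, beside 49.3% and 32.0% of all genes and their median of 0.15. Txnl1, a redox protein of the 19S particle, had 154 and 155 FPKM in Cct7 KD, against 93.9 and 95.0 FPKM in Cct7 KD Ctr (0.70), and Ecpas, which holds core and 19S particle together, changed by 0.68 and the ubiquitin ligase Ube3c by 0.55. Uchl5, a deubiquitinase of the base, had 45.2 and 44.0 FPKM in Cct7 KD, against 72.8 and 76.2 FPKM in Cct7 KD Ctr (−0.73). Of 14 genes around the transcription of proteasome genes, 11 were called higher and 2 lower, with a median of 0.45, against the same background. Nfe2l1 itself, the factor that raises proteasome genes when the proteasome is blocked, fell by 0.33 on the log2 scale and lies on chromosome 11. Ngly1, which removes its glycans, changed by 1.14, Ddi2, the protease that cuts it, by 0.69, and Syvn1, the ligase that limits it, by 0.95. Maff (1.36), a partner of NRF factors, and Sqstm1 (0.66), an autophagy receptor whose gene also lies on chromosome 11, rose as well. Vcp, a segregase on the same list, was at 0.11 as deposited and at −0.035, not called, after scaling. The other gene called lower was Nfya (−0.32). These counts held their direction after scaling, at 7 higher and 3 lower of 11 and 10 higher and 3 lower of 14, beside 42.2% and 38.5% of all genes.

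In the supply of ubiquitin itself, 7 of 16 genes were called higher and 4 lower in Cct7 KD, with a median of −0.0013, beside 49.3% and 32.0% of all genes. Faf2, a cofactor of the segregase Vcp, rose by 0.77 on the log2 scale. Ubqln4, a shuttle to the proteasome, had 24.4 and 27.5 FPKM in Cct7 KD, against 54.8 and 56.4 FPKM in Cct7 KD Ctr (−1.07), and Rps27a, which encodes ubiquitin fused to a ribosomal protein, changed by −0.66. After scaling 4 were called higher and 8 lower, beside 42.2% and 38.5% of all genes. Of the 9 CCT subunits, 1 was called higher and 7 lower in Cct7 KD, among them Cct4 (−1.37), Cct3 (−0.74) and Cct2 (−0.40) beside the targeted Cct7 (−4.02).

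The promoters of 42 of the 50 genes were in the RefSeq table, and 6 motifs were searched on both strands of each window. The ETS-type motif CCGGAAG was in 16 of them, or 38.1%, against 8.86% of all 32851 promoters and 20.6% of the 9776 other tested genes with one. Among these 16, Psma6, Psmc1, Psmc6, Psmd2 and Psmd6 were called higher in Cct7 KD as deposited, and Psmc2 and Psmd13 in neither direction. The others, called lower, were Pomp, Psmc3ip, Psmd4, Psmd11, Psmd12, Psme3, Psme4, Psmg1 and Psmg3. The motif of the antioxidant response type, TGACNNNGC, which is close to the sites of NRF factors, was in 6 (Psmb5, Psmb6, Psmc6, Psmd9, Psmd12 and Psme4), or 14.3%, against 12.4% of all promoters and 16.9% of the other tested genes. CCAAT was in 33.3%, against 37.4% of all promoters and 44.1% of the other tested genes, and TTCNNNGAA in 7.14%, against 8.30% and 7.86%. The interferon regulatory factor type, GAAA and GAAA with 2 free bases between them, was in 5 (Psmb3, Psmd4, Psmd9, Psme1 and Psmg4), or 11.9%, against 3.44% and 3.32%, and was not in the windows of Psmb8, Psmb9 and Psmb10. The Psmb8 and Psmb9 windows lie wholly inside the genes as annotated by GENCODE, so sequence before the outermost starts was not searched. TGACGTCA was in 0, against 1.79% and 3.601%. The median log2 change in Cct7 KD was −0.21 for genes with the ETS-type motif and −0.08 for those without, −0.38 with and −0.08 without the antioxidant response type, and 0.014 with and −0.28 without CCAAT. These medians were not adjusted for chromosome. Psmb6, Psmd12 and Psme4 of the antioxidant type lie on chromosome 11, where all 10 genes were called lower. Of its other genes, Psmc6 and Psmd9 were called higher as deposited and Psmb5 lower. Psmd11, Psmd12, Psme3, Psme4 and Psmc3ip of the ETS type also lie there. A link between motif and change was not tested.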

How the data were processed

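The 8 libraries were stranded by dUTP and sequenced from both ends on a DNBSEQ-T7, from RNA with an integrity number above 7.0, per the labels' protocols. The authors deposited 2 tables of FPKM, a normalized unit, each holding a knockdown and its control. HTSeq and mm10 are named in the submitters' processing notes. Aligner, versions, annotation, gene lengths and strand setting: not given in the sources used here.

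Symbols and positions came from GENCODE M21 (GRCm38), in which 56 IDs had no symbol. Knockdown and control, 4 libraries at a time, were fitted with limma 3.58.1 in R 4.3.3, using eBayes with the mean trend, on log2(FPKM + 1). Genes averaging under 1 FPKM were left out, and a Benjamini-Hochberg adjusted p under 0.05 counted as called. No scaling was applied in this fit; median-of-ratios scaling was an alternative, and the remainder was always scaled. Other alternatives were a pseudocount of 0.1, no filter, a fold of 2, all 8 libraries in 1 fit, a replicate block and each library left out. The test was checked on simulated data. An exact permutation test of 2 libraries against 2 cannot pass 0.05. Same-numbered libraries of a knockdown and its control, and of the 2 controls, did not deviate together (correlations of −0.04, −0.01 and 0.04), so the numbers pair no samples in these comparisons; they do tie Cct5 KD to Cct7 KD through the shared values. To form the remainder, 1.125 times each Cct7 KD value was subtracted from the same-numbered Cct5 KD value; it was not formed for the 15 genes where it would be negative. A depth was accepted where at least 95% of values between 0.5 and 20 fragments came out whole within 0.05; it stays unknown for Cct5 KD. With it, 1 fragment on 1 kb equals 0.0183 to 0.0530 FPKM. Psmd13 overlaps Sirt3 and Psma2 overlaps AW209491, so their reads may be shared. The knockdowns were not tested against each other because they share values.

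The genes, role classes and lists were chosen with earlier results of these data known. Named by rule were the catalytic, immune and testis subunits, activators, assembly factors, Psmd14 and ubiquitin receptors, the 4 largest rises and falls per knockdown, the highest and lowest gene of each class in the controls, and 4 genes per list by smallest p. Other genes were named after their values were seen. Not all genes named by the rule are reported here.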

Additional observations from a re-analysis of the deposited data

Results flagged for a closer look

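For 9 genes every Cct7 KD library lay below its controls and every Cct5 KD library above its own, as deposited. How many of all genes did so was not counted, so the pattern is not shown to be particular to the proteasome genes. The Cct5 KD minus the Cct7 KD log2 change was 0.64 for the activator subunit Psme1, 0.58 for the alpha ring chaperone Psmg1, 0.57 for the ubiquitin receptor Psmd4, 0.56 for the core maturation factor Pomp, 0.54 for Psmb7, 0.53 for Psmb5, 0.55 and 0.47 for the alpha subunits Psma7 and Psma4, and 0.46 for the lid subunit Psmd13. The difference was not tested, because the Cct5 KD values contain 1.125 times the Cct7 KD values. The median of all genes was 0.68 in Cct5 KD and 0.15 in Cct7 KD. As deposited Psmb5 was not called in Cct5 KD, nor Psmd13 in Cct7 KD. After median-of-ratios scaling all 9 were called lower in both. Psmg1 was called higher in Cct5 KD by 0.06, and in none of the 4 fits that leave out a library.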

How the results depend on the processing

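In Cct7 KD, 8 genes were called higher after scaling, with a median log2 change of −0.23, and 5 after centring each chromosome, with a median of −0.23. With a fold of 2, 0 were called higher and 2 lower, and of all genes 1837 higher and 897 lower. In Cct5 KD, 7 were called higher and 33 lower after scaling (all genes 6182 and 5285, median of the 50 genes −0.32). Chromosome centring gave 5 higher and 35 lower (all genes 5620 and 5701, median −0.29), and the remainder gave 7 higher and 39 lower (all genes 4674 and 5277, median −0.41), or 6 and 38 when centred (all genes 4892 and 4959, median −0.40). A fold of 2 left 2 higher and 1 lower, of all genes 4417 and 307. In these settings of Cct5 KD the direction of the median reversed, except with the fold.

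Some of the 50 genes turned in sign. In Cct7 KD the log2 change after scaling was −0.032 for Psmb1, −0.12 for Psmc4 and −0.094 for Psmd8. In Cct5 KD after scaling it was −0.33 for Pomp, −0.020 for Psma1, −0.22 for Psma2, −0.35 for Psma4, −0.066 for Psma5, −0.080 for Psma6, −0.33 for Psma7, −0.54 for Psmb5, −0.33 for Psmb7, −0.13 for Psmc1, −0.30 for Psmc2, −0.65 for Psmc3ip, −0.48 for Psmc4, −0.27 for Psmd13, −0.15 for Psmd14, −0.022 for Psmd2, −0.37 for Psmd4, −0.12 for Psmd8, −0.50 for Psme1, −0.0063 for Psmf1, −0.64 for Psmg1, −0.31 for Psmg2 and −0.091 for Psmg4. In the remainder it was −0.22 for Pomp, −0.019 for Psma1, −0.15 for Psma2, −0.45 for Psma4, −0.30 for Psma5, −0.18 for Psma6, −0.32 for Psma7, −0.014 for Psmb2, −0.37 for Psmb5, −0.19 for Psmb7, −0.37 for Psmc1, −0.83 for Psmc2, −0.55 for Psmc3, −0.44 for Psmc3ip, −1.31 for Psmc4, −0.50 for Psmd13, −0.56 for Psmd14, −0.25 for Psmd2, −0.38 for Psmd4, −0.40 for Psmd5, −0.74 for Psmd6, −0.20 for Psmd8, −0.16 for Psmd9, −0.13 for Psme1, −0.34 for Psmf1, −0.57 for Psmg1 and −0.59 for Psmg2. With chromosome medians subtracted, 8 genes called in Cct7 KD had the other sign and 3 of them were called so, 24 and 18 in Cct5 KD, and 24 and 23 in the remainder. The FPKM totals differ between Cct5 KD and its control, and the cause of these reversals was not tested further.

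With the replicate block Cct7 KD had 18 genes called higher and 24 lower and Cct5 KD had 34 and 13, and Psmb5 in Cct5 KD passed the test (0.15, adjusted p = 0.036); no other call among the 50 genes differed. Leaving out 1 library gave 15 to 18 higher and 22 to 25 lower in Cct7 KD, 31 to 33 and 11 to 12 in Cct5 KD, and 6 to 7 and 37 to 39 in the remainder. Between the controls, the fit of all 8 libraries called 1 of the 50 genes higher, and of all genes 166 higher and 278 lower; leaving out 1 library gave 0 to 23 higher and 0 to 80 lower, from 0 in each direction. The limits are 2 libraries per group, no depth for Cct5 KD, an unknown strand setting, and groups that differ in Hprt and over whole chromosomes.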

Other observations

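In Cct5 KD, as deposited, 10 of 11 proteasome partners outside the naming rule were called higher and 1 lower, beside 78.0% and 11.3% of all genes, and 7 and 3 after scaling, beside 44.0% and 37.6%. Sem1, the small lid protein that the naming rule misses, had 98.8 and 98.3 FPKM in Cct5 KD, against 40.4 and 39.8 FPKM in Cct5 KD Ctr, a log2 change of 1.28 as deposited and 0.58 after scaling (limma, adjusted p = 5.5e-06). In the remainder Sem1 was at 0.98 while all 8 lid genes of the naming rule were called lower. Adrm1, the ubiquitin receptor that binds Psmd2, was at −0.98 in the remainder and Uchl5, which Adrm1 recruits, at −0.94.

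Of the 14 genes around proteasome transcription, 9 were called higher and 5 lower in scaled Cct5 KD, against the same background. Ngly1 (1.02) and Maff (1.40) rose as in Cct7 KD. In the remainder 5 were called higher and 7 lower, beside 39.9% and 45.1% of all genes, with Nfyc at −1.45, Sqstm1 at −0.59 and Vcp at −0.53. Of the genes around antigen presentation B2m (1.78), H2-K1 (1.62), Tap1 (1.24) and H2-D1 (1.09) were higher in the remainder and Irf1 (−1.51) was lower.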
